A study of Mus musculus with 6 samples.

Results

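Fibrillins, fibulins and their companions of the microfibril were examined as 10 genes taken by name from the 23159 genes of the count table. They were the fibrillins *Fbn1* and *Fbn2*, the fibulins *Fbln1*, *Fbln2*, *Fbln5*, *Efemp1* (fibulin-3) and *Efemp2* (fibulin-4), the microfibril-associated glycoproteins *Mfap2* and *Mfap5*, and *Eln*, which encodes elastin. RNA had been sequenced from label-retaining chondrocytes (LRCs) and from non-LRCs of the mouse growth plate, to learn what sets slow-cycling chondrocytes apart. Each of 3 independent experiments gave an LRC and a non-LRC library from the same pool of littermates, 6 libraries in 3 pairs. Of the 10 genes, 9 had enough counts to be tested, and 1, *Efemp1*, was significantly higher in LRCs.

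The mice of both groups were alike in genotype, age and treatment, and the groups differed in the brightness of the retained label. All were homozygous for *Col2a1-tTA* at *Peli2*, *TRE-H2B-GFP* at *Col1a1*, *Col2a1-creER* and *R26R*(tdTomato), and were 49 days old. Doxycycline was given from P21 to P49, which stops new H2B-GFP from being made so that each division dilutes it, and tamoxifen was given at P46 and P47. Cells were freed by collagenase from the distal femur and proximal tibia epiphyses, and CD45- tdTomato+ cells were sorted. About 10000 cells with bright GFP (top 10 percentile) made up each LRC library, and about 50000 cells with mid to low GFP (10 to 50 percentile) each non-LRC library. Both the label and the red reporter were driven through *Col2a1* regulatory sequence in a transgene. The study also saw a low level of the label in osteoblasts and osteocytes without *Col2a1-tTA*, and added the red reporter for this reason. Among CD45- tdTomato+ cells it saw almost no GFP+ cells without *Col2a1-tTA*. Each library pools several animals.

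Fibrillins assemble head to tail into microfibrils, thin extracellular filaments that hold growth factors: latent TGF-β through latent TGF-β binding proteins, and BMPs by direct binding of their prodomains to fibrillin. Fibulins and microfibril-associated glycoproteins bind these filaments, and in elastic tissues they guide elastin and lysyl oxidases onto them. In cartilage, microfibrils surround the chondrocytes without much elastin, and changes in *FBN1* alter the growth of long bones, as in Marfan syndrome.

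The libraries held 18943789 to 129559872 counts, and the smallest was that of the LRCs in experiment 2. One count there was worth 0.0478 CPM, a unit that scales counts to a common library total (here with TMM normalization), and 1731 of the 13728 genes tested were at 0 in it, against 4 to 365 in the other libraries. The cells carried the RNA of chondrocytes, with 12 chondrocyte markers such as *Col2a1* and *Acan* summing to 90664 to 242467 CPM in LRCs and 147891 to 259939 CPM in non-LRCs. Of these 12, 11 had a fitted value below 0 (median log2 fold change −0.50, LRCs over non-LRCs). In all 3 experiments 10 of them were lower in LRCs (26.0% of all genes), and 0 were significant. As each sample is a mixture of many cells, more cells with a transcript and more transcript per cell cannot be told apart.

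The plot of levels by library divides the 10 genes into a set with many counts and a scarce set. *Efemp1*, *Efemp2*, *Fbn1* and *Mfap2* had at least 275 counts in every library, and *Fbn2*, *Fbln1*, *Fbln5*, *Mfap5* and *Eln* had 0 counts in the LRC library of experiment 2, where *Fbln2* had 10. *Efemp1*, *Fbn1* and *Mfap2* were higher in the LRC library in all 3 experiments, and *Fbln1* and *Fbln5* were lower in all 3. Over all genes tested, 20.4% were higher in all 3 experiments and 26.0% were lower. The 3 LRC values all lay above the 3 non-LRC values for *Efemp1* (8.41% of all genes) and all below them for *Fbln5* (10.3% of all genes). The groups overlapped for the remaining 7 genes tested.

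**Figure D1:**
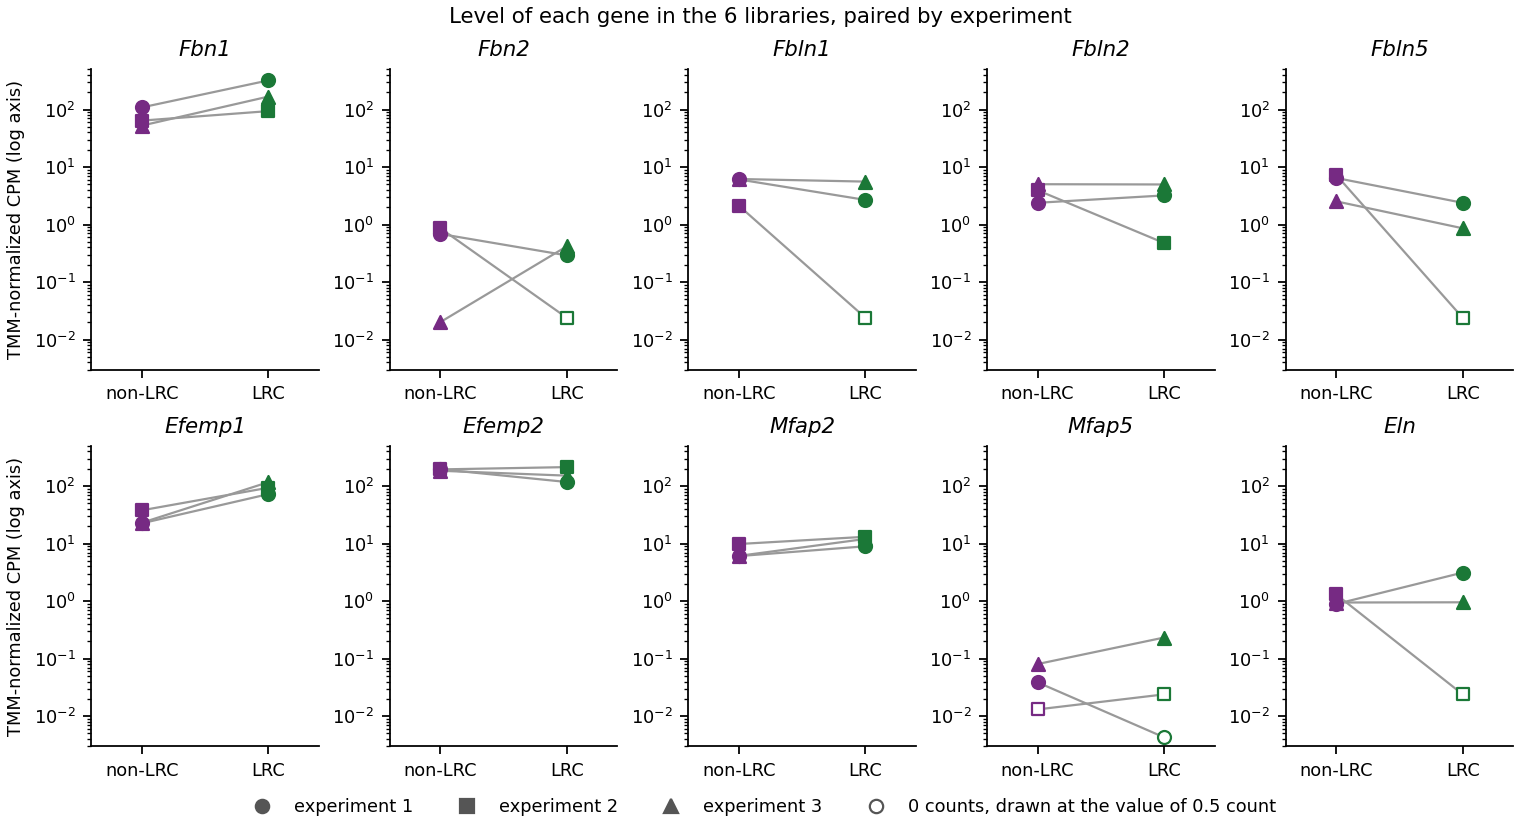
TMM-normalized CPM (log axis) of each of the 10 genes in the non-LRC and LRC libraries, where each symbol is 1 experiment, a line joins the libraries of 1 experiment, and an open symbol marks 0 counts. *Efemp1* lay at 22.5 to 37.9 CPM in non-LRCs and 72.4 to 116.8 CPM in LRCs, and 5 genes had an open green square, which is the LRC library of experiment 2.

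*Efemp1*, the gene of fibulin-3, encodes a small secreted fibulin of basement membranes and connective tissue. In LRCs it stood at 72.4, 93.5 and 116.8 CPM in experiments 1, 2 and 3, and in non-LRCs at 22.5, 37.9 and 23.0 CPM. All LRC libraries lay above all non-LRC libraries, with means of 94.2 ± 22.2 against 27.8 ± 8.74 CPM (mean ± s.d., *n*=3). Within the experiments the log2 CPM differed by 1.68, 1.30 and 2.34. The fitted fold change was 3.43 (log2 1.78, s.e. 0.24, 95% interval 1.20 to 2.36), with an adjusted p of 0.0385 in edgeR's quasi-likelihood test with a term for the experiment.

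*Efemp1* was thus 1 of 9 members tested that passed at an adjusted p below 0.05, where 176 of all 13728 genes did (1.28%). At an unadjusted p below 0.05, *Efemp1* and *Fbn1* passed, beside 18.4% of all genes. The call of *Efemp1* was lost without the experiment term (log2 1.76, adjusted p = 0.134) and without experiment 1 (log2 1.82, adjusted p = 0.0970), each time with the direction and size kept. It was kept without experiment 2 (2.01, adjusted p = 0.0081) and without experiment 3 (1.52, adjusted p = 0.0172).

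*Efemp1* lies on the forward strand of chromosome 11 (GRCm38, 28853204-28926743), with 11 exon blocks and 2037 exonic bases, and *Efemp2* on the forward strand of chromosome 19 (5473954-5482517). Their upstream sequences are shown because these fibulins are close in domain structure and *Efemp1* alone was called. The fitted change of *Efemp2* could not be told from 0, and the part of these sequences in either level was not tested. Below are the 250 bases before a RefSeq start of each gene (GRCm38.p6, forward strand, 5′ to 3′), at chr11:28852955-28853204 for *Efemp1* and chr19:5473696-5473945 for *Efemp2*. The last base of the first window is also the first base of the GENCODE gene. Capitals mark matches on either strand to the searched motifs.
Efemp1: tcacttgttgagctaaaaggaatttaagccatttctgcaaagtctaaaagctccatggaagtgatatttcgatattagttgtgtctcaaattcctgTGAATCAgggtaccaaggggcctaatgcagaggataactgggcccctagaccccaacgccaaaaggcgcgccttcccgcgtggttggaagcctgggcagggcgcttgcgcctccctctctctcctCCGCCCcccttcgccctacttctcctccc
Efemp2: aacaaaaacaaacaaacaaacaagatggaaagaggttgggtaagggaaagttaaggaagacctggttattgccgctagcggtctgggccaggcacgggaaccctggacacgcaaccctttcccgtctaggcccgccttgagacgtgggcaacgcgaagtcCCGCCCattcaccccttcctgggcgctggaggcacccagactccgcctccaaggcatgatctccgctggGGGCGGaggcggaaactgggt

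The motifs searched on both strands were the GC box GGGCGG, the TATA box TATAAA, the CCAAT box CCAAT, the E-box CACGTG, the AP-1 site TGANTCA and the TEAD site GGAATG. The *Efemp1* window held 1 match to the AP-1 letters TGANTCA, a search that left the middle base (N) open. The match reads TGAATCA and starts 154 bases before the RefSeq start. The same window held 1 GC box match at 29 bases before that start. The *Efemp2* window held 2 GC box matches, at 90 and 21 bases before the start. Of 32851 RefSeq promoters, 6.7% held the AP-1 letters and 32.7% a GC box. No match overlapped another, and the matches are a description of these letters, with no measure of binding. The GC share was 53.6% for *Efemp1* and 59.2% for *Efemp2*, with a median of 52.4% over all promoters. *Efemp2* has further RefSeq starts, and the windows before them, which overlap each other and are not printed here, held 5 GC box matches each at a GC share of 75.6% and 78.8%.

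*Efemp2* encodes fibulin-4, which is needed for elastic fibre assembly and binds lysyl oxidase. Its level was 117.7, 213.8 and 151.9 CPM in LRCs and 196.4, 195.0 and 184.7 CPM in non-LRCs. The groups overlapped, and the non-LRC libraries lay close together, at a highest over lowest of 1.06. The fitted log2 fold change was −0.30 (s.e. 0.20, 95% interval −0.78 to 0.18, adjusted p = 0.479), so a change of the size seen for *Efemp1* lay outside its interval. The ratio of *Efemp1* to *Efemp2*, per kb of exon, was 1.14, 0.813 and 1.43 in LRCs and 0.213, 0.361 and 0.232 in non-LRCs. This ratio was higher in the LRC library of every experiment, by log2 2.42, 1.17 and 2.63 (2.07 ± 0.79, mean ± s.d., *n*=3), and an exact two-sided permutation test over the 3 pairs gave p = 0.25, the smallest that 3 pairs allow.

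*Fbn1*, which encodes the principal fibrillin of microfibrils after birth, was the second member with an unadjusted p below 0.05. It lies on the reverse strand of chromosome 2 (GRCm38, 125300594-125507993), with 65 exon blocks and 12128 exonic bases. In LRCs it was at 320.6, 93.8 and 167.8 CPM, and in non-LRCs at 108.7, 64.1 and 52.5 CPM. It was higher in the LRC library of each experiment, by 1.56, 0.55 and 1.68 in log2 CPM, but the LRC value of experiment 2 lay below the non-LRC value of experiment 1. The fitted fold change was 2.41 (log2 1.27, s.e. 0.25, 95% interval 0.65 to 1.88), and the adjusted p of 0.0794 missed the threshold.

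The call of *Fbn1* changed with the setting while its direction did not. Without experiment 2 it passed, at a log2 fold change of 1.62 and an adjusted p of 0.00646, where 5.37% of all genes passed. It passed with DESeq2 (adjusted p = 3.4e-05, 12.3% of all genes called), with limma-voom (adjusted p = 0.00184, 9.91% of all genes) and when only genes with at least 10 counts in every library were tested (adjusted p = 0.0178, 6.75% of all genes). *Efemp1* passed in these 4 settings as well, and no other member did. Of the exonic bases of *Fbn1*, 20.1% are shared with a gene model on the other strand, *Gm9913*, and as the strand setting of the counting is not given in the sources used here, reads of these bases cannot be told apart. Such overlaps were smaller for *Efemp2* (4.57%, with *Mus81*), *Eln* (3.3%, with *Gm30003*) and *Fbn2* (0.98%, with *Gm26507*).

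**Figure D2:**
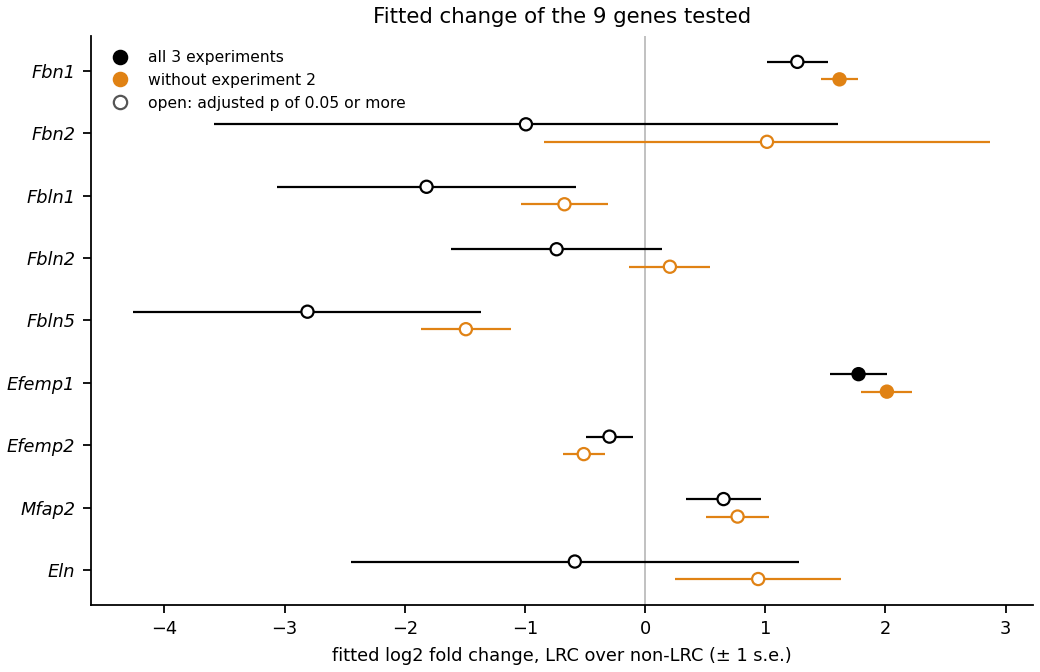
Fitted log2 fold change of LRCs over non-LRCs (x axis, ± 1 s.e.) for the 9 genes tested, from all 3 experiments (black) and without experiment 2 (orange), filled where the adjusted p was below 0.05. *Efemp1* was filled in both fits and *Fbn1* only without experiment 2, and the bars of the scarce genes were widest with all 3 experiments.

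*Fbn2*, the fibrillin that predominates in the embryo, was near the limit of detection. Its counts in LRCs were 34, 0 and 18, and in non-LRCs 71, 33 and 1. The highest and the lowest counts among the non-LRCs were 71 and 1, and the groups overlapped. The fitted log2 fold change of −0.99 had an s.e. of 2.60 (adjusted p = 0.871) and became 1.01 without experiment 2, so no direction could be given. Per kb of exon, the ratio of *Fbn2* to *Fbn1* was at most 0.0124 in any library.

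*Mfap2* encodes the microfibril-associated glycoprotein MAGP-1, which binds fibrillin and TGF-β family ligands. It was at 8.98, 13.1 and 12.1 CPM in LRCs and 6.07, 9.85 and 6.12 CPM in non-LRCs. The LRC library was the higher in every experiment, by 0.56, 0.42 and 0.98 in log2 CPM, but the groups overlapped through experiment 1 of the LRCs and experiment 2 of the non-LRCs. The fitted log2 fold change of 0.65 (s.e. 0.31, 95% interval −0.11 to 1.42) did not pass, at an adjusted p of 0.339. Its relative *Mfap5*, which encodes MAGP-2, had 0, 0 and 10 counts in LRCs and 4, 0 and 4 in non-LRCs and was not tested.

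Among the other fibulins, *Fbln5*, which tethers elastic fibres to cells through integrins, had the most negative fitted value of the members. It was at 2.39, 0 and 0.861 CPM in LRCs and 6.46, 7.31 and 2.54 CPM in non-LRCs. Every LRC value lay below every non-LRC value, with 0.861 and 2.39 against 2.54 as the nearest. The fitted log2 fold change was −2.81 (s.e. 1.45, adjusted p = 0.367). Without experiment 2 it was −1.49 (s.e. 0.37, adjusted p = 0.0673), which also missed the threshold. In experiment 2 the LRC library had 0 counts, which with 3 counts as the floor would make *Fbln5* at least 50.9-fold lower. That limit covers counting error only, and 8.48% of tested genes at 3 to 10 CPM in the non-LRC library were also at 0 there. Within experiments 1 and 3 the log2 CPM of *Fbln5* differed by −1.42 and −1.52.

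*Fbln1*, a fibulin of basement membranes and of early connective tissue, was lower in the LRC library of every experiment without passing the test. It was at 2.68, 0 and 5.59 CPM in LRCs and 6.09, 2.12 and 6.20 CPM in non-LRCs. The groups overlapped, and in experiment 3 the libraries were nearly level. Its fitted log2 fold change was −1.82 (s.e. 1.25, adjusted p = 0.494) and −0.67 (s.e. 0.36, adjusted p = 0.301) without experiment 2.

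*Fbln2*, a larger fibulin that binds fibrillin and fibronectin, had no common direction. It was at 3.21, 0.478 and 4.98 CPM in LRCs and 2.39, 3.95 and 5.03 CPM in non-LRCs. The LRC library of experiment 2 was the one apart. Its log2 fold change was −0.74 (s.e. 0.88, adjusted p = 0.705), and 0.21 (adjusted p = 0.759) without experiment 2.

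*Eln*, the elastic core of elastic fibres, was scarce in these cartilage cells. It was at 3.13, 0 and 0.954 CPM in LRCs and 0.891, 1.31 and 0.946 CPM in non-LRCs. One LRC library lay above, 1 at 0 and 1 among the non-LRC values. Its log2 fold change of −0.58 (s.e. 1.86, adjusted p = 0.896) became 0.94 (adjusted p = 0.450) without experiment 2, so that its direction rested on that experiment.

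The zeros of experiment 2 were compared with those of all genes of the same level. At the non-LRC level of that experiment, the LRC library would have held 153 counts of *Fbln5*, 44.4 of *Fbln1*, 27.4 of *Eln* and 18.1 of *Fbn2*, and it held 0 of each. Of the tested genes with 3 to 10 CPM in the non-LRC library, as *Fbln5* had, 8.48% had no count in the LRC library of experiment 2, against 0.121% in experiment 1 and 0% in experiment 3. With 1 to 3 CPM, as *Fbln1* and *Eln* had, 29.9% were at 0, against 2.30% and 0.305%. With 0.5 to 1 CPM, as *Fbn2* had, 45.1% were at 0, against 5.71% and 1.96%. These zeros lay in the library with the fewest counts, whose part in them was not tested.

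**Figure D3:**
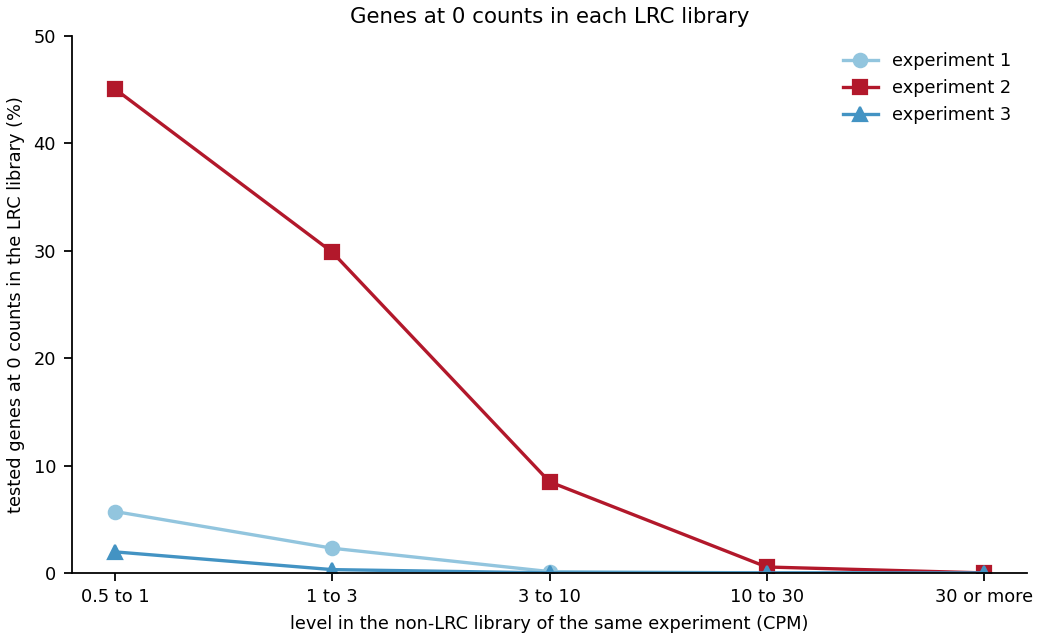
Share of tested genes (y axis, in percent) that had 0 counts in the LRC library, by their level in the non-LRC library of the same experiment (x axis, in CPM), with 1 line for each experiment. In experiment 2 the share was 29.9% at 1 to 3 CPM and 8.48% at 3 to 10 CPM, and it was at most 5.71% in the other experiments.

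Levels of different genes were compared per kb of exon. *Efemp1* and *Efemp2* were the highest in LRCs, at 46.3 ± 10.9 and 42.5 ± 12.9 CPM per kb, followed by *Fbn1* at 16.0 ± 9.54 and *Mfap2* at 9.41 ± 1.78 (mean ± s.d., *n*=3). The values of *Efemp1* and *Efemp2* overlapped in LRCs, as did those of *Fbn1* and *Mfap2*, whereas *Efemp2* lay above *Fbn1* and *Mfap2* above *Fbln1* in every LRC library. In non-LRCs the order was *Efemp2* (50.7 ± 1.68), *Efemp1* (13.6 ± 4.29), *Fbn1* (6.19 ± 2.45) and *Mfap2* (6.06 ± 1.79), and again only *Fbn1* and *Mfap2* overlapped. With the longest transcript in place of all exons, *Efemp2* was at 61.2 CPM per kb in LRCs and so above *Efemp1*, whose length did not change.

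The scarce genes lay below 2 CPM per kb in every library. In LRCs their means ran from 0.631 for *Fbln1* through 0.454 for *Fbln2*, 0.168 for *Eln*, 0.157 for *Fbln5* and 0.0216 for *Mfap5* to 0.0179 for *Fbn2*, and no neighbours in this order were apart. In non-LRCs *Fbln5*, at 0.786 ± 0.368 CPM per kb, stood second among the scarce genes, after *Fbln1* at 1.10 ± 0.53, and these values overlapped too.

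**Figure D4:**
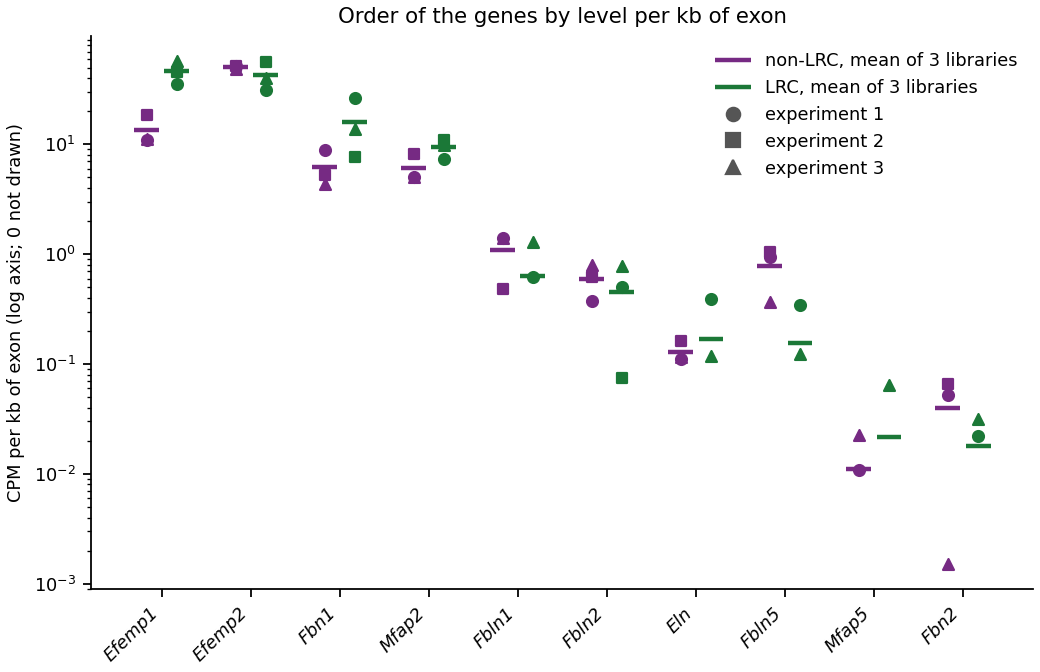
CPM per kb of exon (log axis, 0 not drawn) of the 10 genes in the order of their LRC means, with 1 point for each library, shaped by experiment, and a bar at the mean of the 3 libraries of each group. *Efemp1* stood at a mean of 46.3 in LRCs and 13.6 in non-LRCs, and *Efemp2* at 42.5 and 50.7.

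The 3 tested genes whose pattern over the 6 libraries was nearest to that of *Efemp1* were *Gli2*, a transcription factor of Hedgehog signaling, *Zfp612*, a zinc finger gene, and *Serpine2*, an inhibitor of serine proteases. Nearness was the root mean square difference of mean-centred log2 CPM, which was 0.264 for *Gli2*, 0.267 for *Zfp612* and 0.271 for *Serpine2*, with a median of 1.12 over all genes tested. The 3 genes were picked for likeness to *Efemp1* over these same libraries, so a higher level in LRCs was built in. Their own fits are given as description only. *Serpine2* was higher in LRCs at an adjusted p of 0.0176 (log2 1.55), and *Gli2* (1.92, adjusted p = 0.0606) and *Zfp612* (1.28, adjusted p = 0.214) did not pass. Of the members, *Mfap2* was nearest to *Efemp1*, at 0.577, then *Fbn1* at 0.827.

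The wider system of microfibrils was described by 50 partner genes of 5 roles, of which 44 were tested. These lists were chosen with earlier results of these data known, so their shares beside all genes are description only. *Ltbp3*, a latent TGF-β binding protein that anchors the growth factor to microfibrils, alone was called. It was at 352.9, 162.6 and 195.6 CPM in LRCs and 133.3, 47.0 and 70.4 CPM in non-LRCs. All LRC values lay above all non-LRC values, and the fitted fold change was 2.94 (log2 1.56, s.e. 0.15, adjusted p = 0.0189). This call too was lost without the experiment term (log2 1.5, adjusted p = 0.339) and without experiment 1 (log2 1.63, adjusted p = 0.0534).

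Of the 44 partners tested, 31 had a fitted value above 0 (70.5%, against 44.0% of all genes) and 13 below, and in all 3 experiments 20 were higher and 5 lower (20.4% and 26.0% of all genes). The median of their log2 fold changes was 0.55, against −0.10 over all genes and −0.58 over the 9 members tested. The median of the members turned to 0.77 without experiment 2, against 0.53 over the partners and −0.02 over all genes. The number of partners called was 8 without experiment 2 (5.37% of all genes called), 12 with DESeq2 (12.3%), 11 with limma-voom (9.91%) and 8 among genes with at least 10 counts in every library (6.75%).

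By role, 10 of the 13 other microfibril and elastic fibre proteins had a fitted value above 0 (median 0.81). The gene of largest mean CPM over the 6 libraries was *Fn1*, which encodes fibronectin, the scaffold on which fibrillins assemble. LRCs had 19322 ± 8534 CPM of *Fn1* and non-LRCs 8681 ± 3775 CPM (mean ± s.d., *n*=3), with a log2 fold change of 1.14 (s.e. 0.21, adjusted p = 0.0658). It was higher in the LRC library of each experiment and missed the threshold.

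All 8 ADAMTS and ADAMTS-like proteins of microfibrils that were tested had a fitted value above 0 (median 1.02), against 44.0% of all genes. Of these 8, 0 passed in edgeR (1.28% of all genes) and 1 had an unadjusted p below 0.05 (18.4%). DESeq2 called 1 (12.3% of all genes) and limma-voom 1 (9.91%). *Adamts10*, a protease-like protein that binds *Fbn1* microfibrils, had the largest mean CPM over the 6 libraries (16.9), at 17.4 ± 6.58 in LRCs against 16.5 ± 8.03 in non-LRCs (log2 0.15, 95% interval −0.45 to 0.75, adjusted p = 0.780). In LRCs alone *Thsd4* was higher in CPM, at 27.4 ± 4.80, against 5.70 ± 3.56 in non-LRCs (log2 2.42, adjusted p = 0.0658).

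Crosslinking enzymes showed no common direction, with 2 of 6 fitted above 0 (median −0.14). The one of largest mean CPM over the 6 libraries, the lysyl oxidase *Loxl4*, had 672 ± 295 CPM in LRCs against 1053 ± 502 CPM in non-LRCs (log2 −0.62, adjusted p = 0.307). Its LRC library was the lower in experiments 1 and 2 and the higher in experiment 3.

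Integrin subunits that bind fibrillins or fibulins were above 0 in 5 of 9 (median 0.51). The largest mean CPM over the 6 libraries was that of *Itga5*, a subunit of the classical fibronectin receptor, at 885 ± 302 in LRCs against 538 ± 143 in non-LRCs (log2 0.70, adjusted p = 0.118), although *Itgb1* was higher in non-LRCs alone (705 ± 48.3). Elastin-degrading proteases were above 0 in 6 of 8 (median 0.56), where the largest mean CPM over the 6 libraries was that of the lysosomal protease *Ctsb*, at 848 ± 184 in LRCs against 551 ± 87.2 in non-LRCs (log2 0.61, adjusted p = 0.0934). In non-LRCs alone *Mmp2* was higher (571 ± 114). The 3 LRC values of *Ctsb* lay above all non-LRC values, those of *Itga5* did not, and neither gene passed the test. In these last 3 roles edgeR called 0 genes, DESeq2 1, 3 and 3 (12.3% of all genes), and limma-voom 1, 2 and 4 (9.91%). At an unadjusted p below 0.05 in edgeR there were 1, 3 and 4 (18.4% of all genes).

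**Figure D5:**
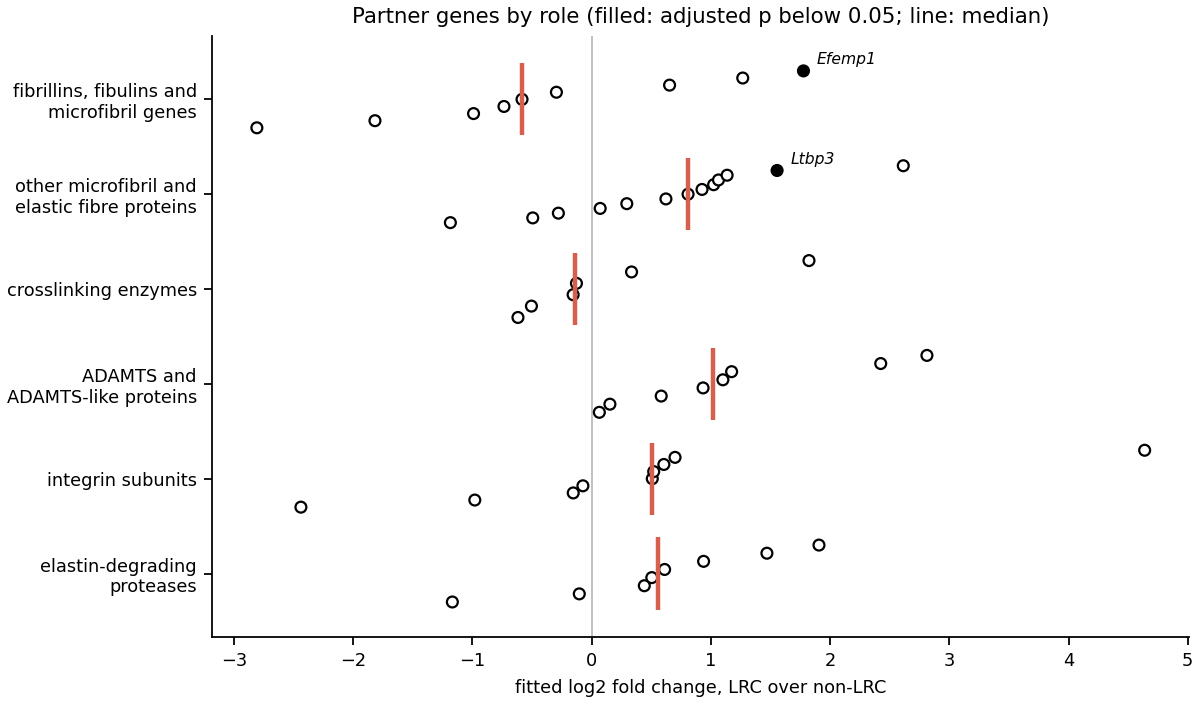
Fitted log2 fold change of LRCs over non-LRCs (x axis) for each tested gene of the family (top row) and of the 5 partner roles, with 1 point for each gene, filled at an adjusted p below 0.05, and a line at the median of each row. *Efemp1* and *Ltbp3* were filled, and the row medians were −0.58 for the family, which turned to 0.77 without experiment 2, and up to 1.02 for the ADAMTS and ADAMTS-like proteins.

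Marker lists of cell types, hypertrophic chondrocytes included, were measured beside these genes. They too were chosen with earlier results of these data known. The 8 markers of superficial articular and synovial cells summed to 1719 to 3840 CPM in LRCs and 219 to 364 CPM in non-LRCs. Of the 8, 6 were called higher, where 1.28% of all genes were called in either direction. Among them, *Prg4*, which encodes lubricin, was at 1017, 109 and 869 CPM in LRCs and 29.5, 3.22 and 6.36 CPM in non-LRCs, with none of the markers at 0 in all libraries. Not called were *Creb5* (log2 −0.04, adjusted p = 0.970) and *Htra4* (log2 2.99, adjusted p = 0.390). The summed list moved in the direction of *Efemp1*, *Fbn1* and *Ltbp3*, and its part in their values was not tested.

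The 14 markers of fibroblasts, perichondrium and tendon summed to 3486 to 4997 CPM in LRCs and 2630 to 3234 CPM in non-LRCs. Of these, 11 were tested and 9 had a fitted value above 0 (median 0.72, against 44.0% of all genes above 0). *Col1a1* alone was called higher, where 1.28% of all genes were called in either direction. *Pdgfra* (38.1 ± 14.5 against 9.25 ± 5.14 CPM) and *Dpt* (11.0 ± 6.23 against 2.07 ± 1.45 CPM) had all LRC values above all non-LRC values and were not called. Fitted below 0 were *Postn*, at 0 in every LRC library against 0.764 ± 0.079 CPM in non-LRCs, and *Scx* (log2 −0.22, adjusted p = 0.765). *Clec3b* was at 0 in all libraries, and *Thy1* and *Pi16* stayed below 1 CPM. Vascular smooth muscle and pericyte markers summed to 62.3 to 128 CPM in LRCs and 45.6 to 134 CPM in non-LRCs, with *Acta2* below 2 CPM throughout, *Tagln* at 13.9 to 85.8 CPM and *Pdgfrb* at 11.2 to 64.1 CPM. Endothelial markers summed to at most 8.51 CPM, with *Cdh5*, *Kdr* and *Emcn* at 0 in all libraries. The summed level of the fibroblast list was higher in LRCs, as were *Efemp1* and *Fbn1*, and its part in their values was not tested. Most abundant in that list were *Col1a2* (log2 0.39, adjusted p = 0.386) and *Lum* (log2 0.24, adjusted p = 0.522), neither with a common direction over the experiments. *Col1a1* and *Col1a2* also stand in a list of 8 osteoblast markers, of which 3 were fitted above 0 and 5 below (median −0.45). In the osteoblast list too, *Col1a1* alone was called.

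The 6 markers of hypertrophic chondrocytes summed to 232 to 605 CPM in LRCs and 604 to 1871 CPM in non-LRCs. All 6 had a fitted value below 0 (median −1.94), and 4 were lower in LRCs in all 3 experiments (26.0% of all genes). In experiment 1 *Mmp13* and *Ibsp* were higher in LRCs, by 1.08 and 0.67 in log2 CPM. Of the 6, *Panx3* alone was called lower in LRCs, and none was at 0 in all libraries. The fitted direction of this list was that of *Fbln5* and *Fbln1*, and its part in their values was not tested.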

How the data were processed

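RNA was measured in 6 libraries of sorted growth plate cells, 3 of LRCs and 3 of non-LRCs, grouped and numbered by experiment from the sample labels. Amplified cDNA (SMART-Seq v4, Nextera XT) was read as single ends. The submitters' processing notes name TopHat2 2.0.13 and Bowtie2 2.2.1 for alignment to mm10 (GRCm38), and reads mapped without ambiguity were counted by the authors with HTSeq. The gene annotation and strand setting are not given in the sources used here. The authors deposited raw counts for 23159 genes, and all tests ran on these. Another deposited table, a signal of counts divided by DESeq2 size factors, was used only to check that relation. The rlog table was not used here.

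Counts were analysed with edgeR 4.0.16 in R 4.3.3. Genes were kept by filterByExpr (minimum count 10, minimum total 15), which left 13728. The model had TMM normalization, a term for the experiment, the quasi-likelihood test (prior count 0.125) and Benjamini-Hochberg adjustment over all genes tested, and genes were called at an adjusted p below 0.05. Pairing follows the study's methods, and deviations from the group means correlated within experiments 1, 2 and 3 at Pearson r of 0.197, 0.288 and 0.336 across genes. No libraries were copies of each other. CPM values were TMM-normalized, with a prior count of 2 only for log2 CPM. The fit was tested on simulated data with known changes in 200 genes. Lengths and coordinates came from GENCODE vM21 on GRCm38, where all 10 members matched by symbol, and promoters from RefSeq (GRCm38.p6), where 7 of them had 12 windows. P-values measure the spread between 3 pools of littermates. Limits from counts cover counting error only.

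The members and gene lists were chosen with earlier results of these data known. Named were all members, each partner called, the partner of largest mean CPM in each role, and the 3 nearest profiles of each member called. Alternatives were a fit without the experiment term, DESeq2 1.42.0, limma-voom 3.58.1, size factors of DESeq2 used in edgeR, a minimum of 10 counts per library, no filter, each experiment left out and the longest transcript as gene length. A prior count of 2 in the fit was chosen after seeing the data.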

Additional observations from a re-analysis of the deposited data

How the results depend on the processing

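Of the fitted fold changes of the 9 members tested, 75 of 86 values under the alternatives kept their direction and their side of the threshold. Among the rest, 5 reversed direction, 4 passed where the main fit did not, and 2 no longer passed. The prior count of 2 left every p of a member unchanged, so no call could change there. With 1 experiment left out, the log2 fold change ranged from −3.32 to 1.01 for *Fbn2*, from −1.48 to 0.21 for *Fbln2* and from −2.71 to 0.94 for *Eln*, in each case positive only without experiment 2. That of *Eln* also turned without the experiment term (0.40) and with limma-voom (1.05). The cause was not tested. Without the experiment term as a replicate block, edgeR called 0 members, 0 partners and 1 gene in all (2 members and 10 partners at an unadjusted p below 0.05), against 1, 1 and 176 with it. DESeq2 with the block called 2 members, 12 partners and 1692 genes, and limma-voom with the block 2, 11 and 1361. With at least 10 counts in every library, 2 members, 8 partners and 751 genes were called from fewer genes tested. With no filter, 1 member, 3 partners and 256 of 17835 genes were called. With 1 experiment left out, 0 to 2 members, 0 to 8 partners and 35 to 782 genes were called, the lowest without experiment 1 (2 members and 11 partners at an unadjusted p below 0.05) and the highest without experiment 2. The share of all genes at that unadjusted threshold was not counted without the block or without experiment 1. The block changed no call of a member other than that of *Efemp1*. Gene length set by the longest transcript moved the levels per kb of *Efemp2* (61.2 in LRCs and 72.9 in non-LRCs) and of *Eln* in non-LRCs (0.272) by more than their s.d., and the other 17 levels moved by less. The median of the members ranged from −1.24 to 0.77 with 1 experiment left out. *Fbn2*, *Mfap5*, *Eln* and the scarce fibulins had at most 10 counts in the LRC library of experiment 2. There 3 counts amount to 0.143 CPM. At the paired non-LRC level that library would have held 153 counts of *Fbln5*, 44.4 of *Fbln1*, 27.4 of *Eln* and 18.1 of *Fbn2*. The cause of their zeros was not tested.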

Other observations

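The partners that follow lie outside the naming rule and were chosen after their values were seen. *Thsd4* encodes the ADAMTS-like protein ADAMTSL6 that binds fibrillin-1 microfibrils. It had 27.4 ± 4.80 CPM (mean ± s.d., *n*=3) in LRCs against 5.70 ± 3.56 CPM in non-LRCs. All its LRC values lay above all non-LRC values (8.41% of all genes). Its log2 fold change in edgeR was 2.42 (s.e. 0.44, adjusted p = 0.0658). With no filter on low counts it passed (adjusted p = 0.0490, with 256 of 17835 genes called). *Loxl1*, the lysyl oxidase tied to elastic fibre upkeep, had 16.5 ± 8.91 CPM in LRCs against 4.42 ± 1.55 CPM in non-LRCs, with a log2 fold change of 1.82 (s.e. 0.37, adjusted p = 0.0808). Without experiment 2 both passed, *Thsd4* at an adjusted p of 0.0141 and *Loxl1* at 0.0326, where 5.37% of all genes passed. *Fbln7*, a further fibulin outside the 10 genes, was lower in the LRC library of each experiment, at 279 ± 72.6 CPM in LRCs against 388 ± 66.6 CPM in non-LRCs (log2 −0.49, s.e. 0.14, adjusted p = 0.155). It passed with DESeq2 (adjusted p = 0.0223, 12.3% of all genes called). *Lox*, the principal lysyl oxidase of elastin, was at 14.8 ± 2.99 CPM in LRCs against 20.8 ± 1.75 CPM in non-LRCs (log2 −0.51, adjusted p = 0.345). All 3 LRC values of *Lox* lay below all non-LRC values (10.3% of all genes), and it was called under none of the settings run.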
